A study of Mus musculus with 18 samples.

Results

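The genes described here encode the CD3 chains of the T cell receptor complex (Cd3e, Cd3d, Cd3g and Cd247), the CD8 coreceptor (Cd8a and Cd8b1) and 4 further surface proteins of T cells (Cd5, Cd6, Cd2 and Thy1). Chromatin accessibility at them was compared between splenic T cells and B cells. A region of the deposited table belonged to one of these genes when the nearest gene end within 50 kb, among protein-coding genes of an mm10 table, was an end of that gene. This gave 31 regions at the 10 genes, of 27396 regions in all. The region farthest from its gene lay 46.1 kb from Cd2. The next one outside the limit lay 63.9 kb from Cd247 and had 0 to 7 counts in T patches and 0 to 81 in B patches.

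The libraries were made by ATAC-seq, in which a transposase cuts open DNA, on frozen sections of spleen from wild-type mice of the strain C57BL/6J, for which the labels name no treatment. B and T cells were immunostained and cut out by laser capture microdissection, either as 10 patches with about 1000 nuclei in all or as 100 nuclei taken one at a time. The groups were T patches (n = 5), B patches (n = 5), T 100 nuclei (n = 4) and B 100 nuclei (n = 4). The labels call the libraries of a group technical replicates and tie none to an animal. Which antigens were stained, how old the mice were and how many were used was not stated in the labels. Libraries may therefore share a mouse, and the p-values reflect spread among libraries, which may be technical, and overstate the evidence about mice. A difference between groups can come from the share of cells of a type in the captured tissue or from the accessibility per cell, and these cannot be told apart.

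On T cells the αβ receptor binds antigen and has almost no cytoplasmic tail. The γ, δ, ε and ζ chains of CD3, which carry the tyrosine motifs that Lck phosphorylates, pass the signal on. CD8, a dimer of α and β chains on cytotoxic T cells, binds MHC class I and brings Lck to the receptor. CD5 and CD6 are scavenger receptor family proteins that tune this signal, CD2 is an adhesion receptor that binds CD48 in the mouse, and Thy-1 is a small lipid-anchored glycoprotein long used to mark mouse T cells. CD5 is also present on a subset of B cells, CD2 on mouse B cells and NK cells, CD8α on some dendritic cells and Thy-1 on some stromal cells.

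Promoter sequences of GRCm38.p6, the assembly with the coordinates of mm10, were found in the RefSeq-derived table for 6 of the 10 genes. Those of Cd3g, Cd5, Cd8a and Cd3e are shown because an accessible region lay over each of them, while the windows of Cd3d and Cd247 overlapped 0 regions. Each runs 5′ to 3′ on the strand of the gene, from 250 bases before the start site to 50 after it. The windows are chr9:44980382-44980681 (Cd3g, minus strand), chr19:10738925-10739224 (Cd5, minus strand), chr6:71373177-71373476 (Cd8a, plus strand) and chr9:45009562-45009861 (Cd3e, minus strand). Capitals mark matches, on either strand, to the letters of 5 motifs. The ETS family of factors was searched as CAGGAA and the RUNX family, which acts in CD8 T cell genes, as TGTGGT. The TCF/LEF family, to which the T cell factor TCF-1 belongs, was searched as ATCAAAG, and the GATA family, which includes GATA-3 of T cells, as AGATAA. E-box motifs, bound by E proteins in developing lymphocytes, were searched as CANNTG, which reads the same on either strand.
Cd3g: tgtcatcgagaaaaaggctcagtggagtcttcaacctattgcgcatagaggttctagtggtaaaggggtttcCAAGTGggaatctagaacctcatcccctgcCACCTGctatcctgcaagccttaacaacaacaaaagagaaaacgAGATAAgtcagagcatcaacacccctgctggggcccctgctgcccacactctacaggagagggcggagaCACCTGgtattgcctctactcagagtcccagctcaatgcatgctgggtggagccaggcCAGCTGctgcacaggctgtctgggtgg
Cd5: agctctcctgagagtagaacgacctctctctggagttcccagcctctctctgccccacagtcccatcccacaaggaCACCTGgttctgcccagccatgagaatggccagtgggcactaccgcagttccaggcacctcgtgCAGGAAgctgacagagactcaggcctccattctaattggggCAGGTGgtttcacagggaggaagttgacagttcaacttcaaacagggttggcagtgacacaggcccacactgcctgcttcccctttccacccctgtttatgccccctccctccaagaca
Cd8a: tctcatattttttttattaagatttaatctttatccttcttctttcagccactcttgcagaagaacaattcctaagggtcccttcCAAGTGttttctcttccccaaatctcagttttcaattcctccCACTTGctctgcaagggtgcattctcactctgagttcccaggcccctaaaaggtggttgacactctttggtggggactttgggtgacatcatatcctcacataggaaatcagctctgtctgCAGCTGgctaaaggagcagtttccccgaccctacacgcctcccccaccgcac
Cd3e: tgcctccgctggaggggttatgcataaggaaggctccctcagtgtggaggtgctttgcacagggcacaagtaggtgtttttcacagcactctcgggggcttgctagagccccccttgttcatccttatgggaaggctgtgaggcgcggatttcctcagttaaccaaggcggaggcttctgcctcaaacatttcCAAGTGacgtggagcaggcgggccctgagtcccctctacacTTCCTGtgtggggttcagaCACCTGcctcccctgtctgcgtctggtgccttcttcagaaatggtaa
The Cd3g window held 4 E-box matches and 1 GATA match, the Cd5 window 2 E-box and 1 ETS, the Cd8a window 3 E-box, and the Cd3e window 2 E-box and 1 ETS. The RUNX and TCF/LEF letters are not in these 4 windows. Of the 32851 promoter windows of the table, 72.3% held an E-box match, 30.6% ETS, 16.8% RUNX, 11.2% GATA and 3.73% TCF/LEF. A match describes letters and is not a measured binding site, and none of the E-box, ETS or GATA matches is rare among promoters.

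The patch libraries had 2193837 to 7343204 counts in T and 2713677 to 6553535 in B, and the libraries of 100 nuclei 319481 to 1076765 in T and 547333 to 720555 in B. The 4 mitochondrial regions took 16.1 to 23.1% of the counts in T patches and 18.8 to 33.6% in B patches, and nuclear counts are those outside them. Regions at T cell markers other than the genes of interest (Tcf7, Lef1, Bcl11b, Lck, Themis, Cd28 and Gata3; Cd4 had no assigned region) took 0.12 to 0.185% of nuclear counts in T patches and 0.0283 to 0.0413% in B patches. Regions at 10 B cell marker genes took 0.0229 to 0.044% in T patches and 0.135 to 0.191% in B patches, so each capture held reads at markers of the other cell type. Macrophage marker regions took 0.00347 to 0.0107% in T patches and 0.0167 to 0.0257% in B patches, with 1 of 6 regions called lower in T (Adgre1). Dendritic cell marker regions took 0.0038 to 0.0123% in T patches and 0.0148 to 0.0269% in B patches, with 0 of 8 called. Of these lists Cd68, Lyz2, Spic, Itgax, Xcr1 and Zbtb46 had no assigned region. Regions at 4 of 6 NK cell markers took 0.0155 to 0.0336% in T patches and 0.0197 to 0.0288% in B patches, with no region at Ncr1 or Gzma. Erythroid and megakaryocyte markers took 0.00116 to 0.00908% in T patches and 0.0037 to 0.00837% in B patches, stroma and endothelium markers 0.0189 to 0.0303% and 0.0124 to 0.019%, and plasma cell markers 0.0278 to 0.0413% and 0.0319 to 0.0379%. The part of these other cells in the results below was not tested.

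In patches, regions at Cd3g, Cd8b1, Cd5 and Thy1 were more accessible in T cells, while 0 regions at the other 6 genes passed the test. Together the 31 regions took 0.111% ± 0.0193 of nuclear counts in T patches and 0.0397% ± 0.00514 in B patches (SD, n = 5 each), a ratio of means of 2.79. The 5 T patch libraries lay between 0.0962 and 0.144% and the 5 B patch libraries between 0.0345 and 0.0466%, with no overlap. Of the 31 regions 29 passed a filter on low counts, and 7 of the 29 (24.1%) were called higher in T by edgeR's quasi-likelihood test at a Benjamini-Hochberg adjusted p of 0.05, at 4 genes: Cd3g, Cd8b1, Cd5 and Thy1. Lower in T were 0. Among all 25712 regions tested, 1.05% were called higher in T, 1.22% lower and 2.27% in either direction. The fitted log2 fold change was above 0 at 24 of the 29 (82.8%), against 51.3% of all regions. At an unadjusted p under 0.05 were 15 of the 29, against 12.7% of all. In 14 of the 29 regions (48.3%) every T patch library lay above every B patch library, which held for 3.69% of all regions tested, while every B library lay above every T library in 4.33% of them. With library size alone as scaling, which moved the median of all regions by 0.17 on the log2 scale, 362 of all regions were called higher in T and 232 lower, against 269 and 314 with TMM, and 10 of the 29 were higher. The median log2 fold change of T over B was 2.15 over the 29 regions and 0.03 over all regions tested.

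The count of 7 depended on single libraries. It was 3, 4, 3 and 4 without T patch library 1, 3, 4 or 5, and 4, 3, 4 and 4 without B patch library 1, 3, 4 or 5. Without T library 2 it was 6 and without B library 2 it was 9, and it was 9 as well without both (a choice made after seeing the data). The 583 calls among all regions also moved, to 347, 272, 334 and 376 without T library 1, 3, 4 or 5. They were 259, 291, 264 and 359 without B library 1, 3, 4 or 5. Without T or B library 2 they were 641 and 673. A joint fit of all 18 libraries called 0 of the 29 and 0 of all regions, with 3 of the 29 at an unadjusted p under 0.05. DESeq2 called 13 of the 29 in patches and 1695 of all regions.

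**Figure D1:**
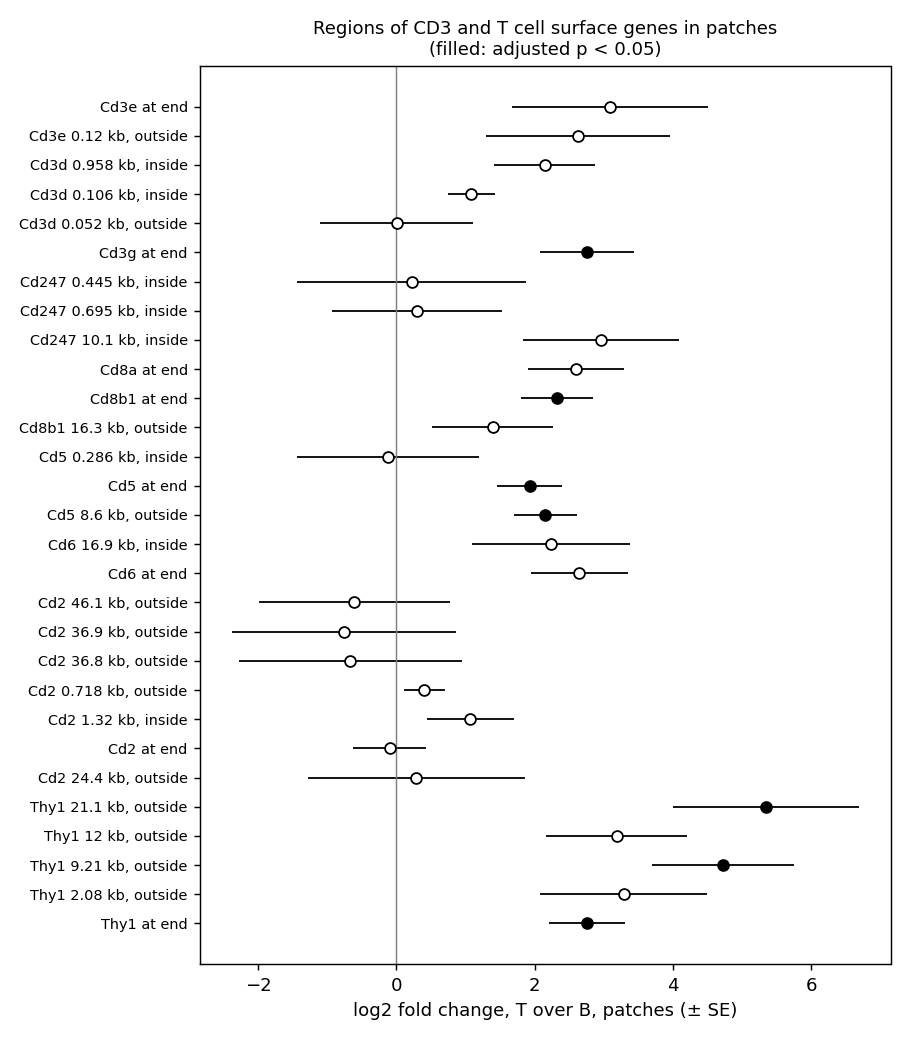
Log2 fold change of T over B in patches (x axis, ± SE) for the 29 tested regions, by gene and by distance in kb from the nearest gene end. Filled points are the 7 regions called at an adjusted p of 0.05, and the 2 highest values are those of Thy1 at 21.1 kb (5.35) and 9.21 kb (4.72).

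Among the CD3 chains, Cd3g, which encodes CD3γ, had the called region. It lay over the start site (chromosome 9, 44980348 to 44980557), 1.21 kb from the nearest end of Cd3d, so the data cannot assign it to Cd3g alone. Its normalized CPM (its counts relative to a library size that TMM factors adjust) was 52.1, 51.0, 92.6, 39.8 and 63.1 in T patch libraries 1 to 5, against 9.16, 16.9, 4.81, 0 and 13.6 in B patch libraries 1 to 5. Every T library lay above every B library. The log2 fold change was 2.75 ± 0.68 (SE; edgeR adjusted p = 0.0368). The call was lost without T library 1, 3, 4 or 5 or B library 1, 3 or 5 (edgeR adjusted p = 0.0578 to 0.13).

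Cd3d, which encodes CD3δ, had 3 regions, all 4.11 to 5.32 kb downstream of its start site and near the other end of the gene. A T cell enhancer is known downstream of CD3D in human. The widest of them (chromosome 9, 44986435 to 44986946) had 67.1, 103, 61.1, 82.7 and 60.2 normalized CPM in T patches, against 41.3, 22.0, 46.6, 40.1 and 26.1 in B patches. The groups did not overlap, but the log2 fold change of 1.08 ± 0.34 did not pass (edgeR adjusted p = 0.104). It passed with library size alone as scaling and with DESeq2 (adjusted p = 0.0475 and 0.0287). In no fit with a single patch library left out did it pass (edgeR adjusted p = 0.118 to 0.228). The region 0.958 kb inside that end had a value of 2.15 ± 0.73 (edgeR adjusted p = 0.147). The region 0.052 kb outside it, with 10.6 ± 7.48 normalized CPM in T patches and 10.7 ± 9.90 in B patches (SD, n = 5 each), had a log2 fold change of 0.00 ± 1.11 (edgeR adjusted p = 1), and was at 0 in 1 library of each group.

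Cd3e, which encodes CD3ε, had a region over its start site (chromosome 9, 45009557 to 45009680) and one 0.17 kb upstream of it. The region over the start had 21.6, 25.7, 4.11, 12.8 and 3.78 normalized CPM in T patches, against 5.85, 0, 0, 0 and 1.83 in B patches. The lowest T libraries overlapped the highest B library, and the values of 3.08 ± 1.42 and 2.63 ± 1.33 at these 2 regions did not pass (edgeR adjusted p = 0.357 and 0.439). At Cd247, which encodes CD3ζ, 3 of 4 regions were tested and 0 called. The one 1.38 kb downstream of the start site in the promoter table (chromosome 1, 165790057 to 165790186) had 15, 47.8, 16.03, 27.8 and 9.56 normalized CPM in T patches and 0, 8.81, 5.02, 0 and 1.33 in B patches, with no overlap. Its log2 fold change was 2.96 ± 1.13 (edgeR adjusted p = 0.217). The regions about 8 kb upstream of that start had 0.22 ± 1.66 and 0.30 ± 1.23 (edgeR adjusted p = 0.987 and 0.979), with intervals too wide to give a direction.

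Both CD8 genes had a region over an end. At Cd8b1, which encodes CD8β, it lay at the lower-coordinate end (chromosome 6, 71322511 to 71322876), with 47.5, 92.0, 44.0, 49.6 and 41.1 normalized CPM in T patches, against 13.8, 23.9, 7.53, 3.61 and 6.31 in B patches. The groups did not overlap, and the log2 fold change was 2.32 ± 0.53 (edgeR adjusted p = 0.0224). This call was lost without B library 3, 4 or 5 (edgeR adjusted p = 0.0656, 0.0554 and 0.0603). At Cd8a, which encodes CD8α, the region over the start site (chromosome 6, 71373366 to 71373583) had 16.3, 51.8, 28.1, 36.1 and 53.1 normalized CPM in T patches and 6.45, 13.6, 6.90, 0.676 and 3.15 in B patches. Here too every T library lay above every B library, and the log2 fold change of 2.60 ± 0.69 missed the threshold (edgeR adjusted p = 0.0511). It passed without B library 2 (edgeR adjusted p = 0.0207), with library size alone (0.0394) and without a filter on low counts (0.0491). With DESeq2 it passed as well (adjusted p = 0.00359). It did not pass without any other single patch library (edgeR adjusted p up to 0.143), with a block for replicate number (0.113) or in the joint fit.

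The stretch between the CD8 genes is known in the mouse for several enhancers that act at different stages of T cell development. It held 1 region, 16.3 kb from Cd8b1 and 19.5 kb from Cd8a, with 18.1 ± 8.23 normalized CPM in T patches and 6.94 ± 6.38 in B patches (SD, n = 5 each). Its log2 fold change was 1.39 ± 0.88 (edgeR adjusted p = 0.606). On the other side of Cd8b1, 15 kb from its end, lay a region whose nearest gene was Gm1070 and which therefore was not counted (chromosome 6, 71307579 to 71307818). It was chosen after its values were seen, and had 25.1 ± 8.16 normalized CPM in T patches and 0.629 ± 0.922 in B patches (SD, n = 5 each), a log2 fold change of 5.19 ± 1.10 (edgeR adjusted p = 0.0155).

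Cd5 had 2 called regions. The one over the start site (chromosome 19, 10738859 to 10739096) had 38.1, 38.2, 63.0, 57.6 and 63.6 normalized CPM in T patches, against 17.9, 6.24, 6.48, 17.1 and 20.4 in B patches. The other, 8.66 kb upstream of the start (10747630 to 10748126), had 79.6, 22.5, 55.5, 147 and 73.6 in T patches, against 19.96, 7.34, 21.7, 18.3 and 17.4 in B patches. At both, every T library lay above every B library, though at the upstream region T library 2 exceeded the highest B library by little. The log2 fold changes were 1.93 ± 0.47 at the start and 2.15 ± 0.46 upstream (edgeR adjusted p = 0.0351 and 0.0157). The call at the start was lost without T library 1, 3, 4 or 5 or B library 1, 3 or 4 (edgeR adjusted p = 0.0535 to 0.107), and the upstream call without T library 4 (edgeR adjusted p = 0.0787). The third Cd5 region, 0.23 kb downstream of the start, had a value of −0.12 ± 1.31 (edgeR adjusted p = 0.991).

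Cd6, the other scavenger receptor gene, had a region over its higher-coordinate end (chromosome 19, 10829969 to 10830137). It had 32.8, 41.8, 18.1, 13.3 and 64.9 normalized CPM in T patches, against 6.60, 0.734, 8.36, 3.38 and 7.80 in B patches. The groups did not overlap, and the log2 fold change of 2.65 ± 0.71 missed the threshold (edgeR adjusted p = 0.0512). It passed without B library 2 (edgeR adjusted p = 0.0467). It also passed under each of the other scalings, with a minimum count of 30 and with DESeq2 (adjusted p = 0.00216 to 0.0473). Without any other single patch library it did not pass (edgeR adjusted p up to 0.212), nor with a block for replicate number (0.14) or in the joint fit. The region 16.9 kb inside Cd6 had a value of 2.23 ± 1.142 (edgeR adjusted p = 0.445).

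Thy1 had 5 regions, at and below its lower-coordinate end, and at all 5 every T patch library lay above every B patch library. The region over the end (chromosome 9, 44043247 to 44043494) had 27.7, 73.1, 34.0, 48.6 and 50.2 normalized CPM in T patches, against 9.16, 10.3, 2.51, 8.34 and 4.32 in B patches. Its log2 fold change was 2.76 ± 0.55 (edgeR adjusted p = 0.0111), and it was the only one of the 7 calls that held without any 1 of the 10 patch libraries (edgeR adjusted p = 0.00744 to 0.0306).

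Farther out, the Thy1 region at 9.21 kb (44034019 to 44034172) had 45.3, 49.8, 11.9, 19.3 and 39.8 normalized CPM in T patches and 4.20, 0, 1.46, 0 and 0.166 in B patches. Its log2 fold change was 4.72 ± 1.03 (edgeR adjusted p = 0.0183), a call lost without T library 1 (edgeR adjusted p = 0.0588). The region at 21.1 kb (44022210 to 44022319) had 15.3, 25.7, 14.7, 26.3 and 17.6 in T patches and 0.150, 2.57, 0, 0 and 0 in B patches. Here B patches were close to 0, and the value of 5.35 ± 1.35 (edgeR adjusted p = 0.039) is therefore uncertain in size: it was 8.18 without B library 2. Without any other single library this call was lost (edgeR adjusted p = 0.0507 to 0.0998). The Thy1 regions at 12 and 2.08 kb had values of 3.18 ± 1.02 and 3.29 ± 1.21 and did not pass (edgeR adjusted p = 0.118 and 0.195).

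**Figure D2:**
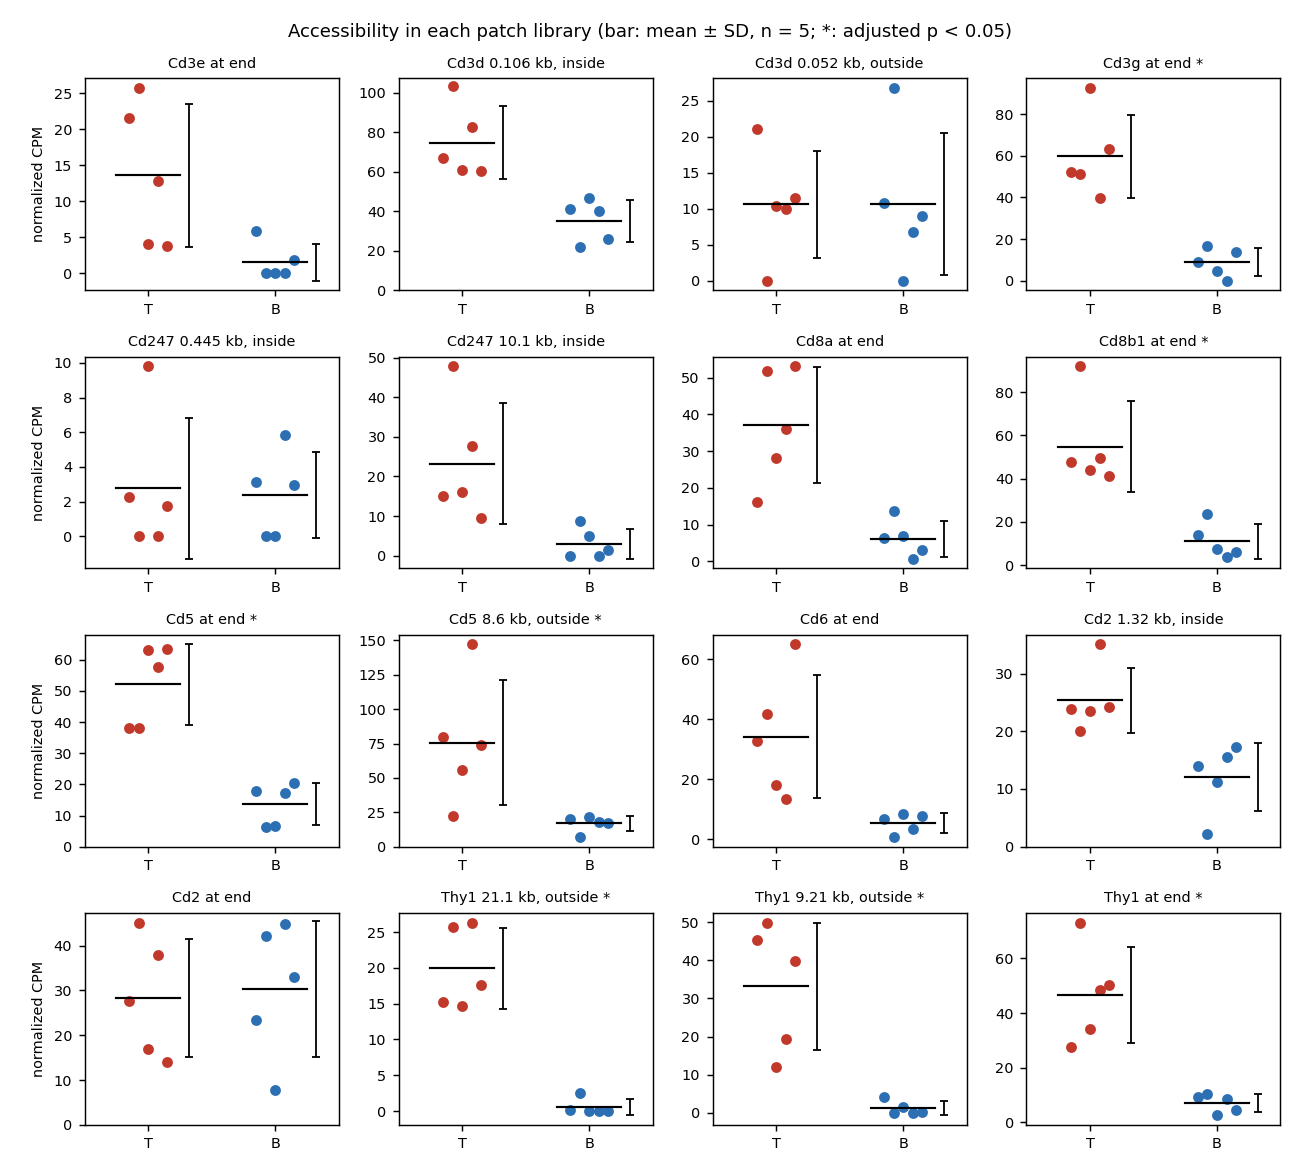
Normalized CPM (y axis) in each T and B patch library at 16 regions: the 7 called regions (asterisk) and, for each gene, the region nearest a gene end and the one with the smallest p. Points are libraries and bars the mean ± SD (n = 5 each); T lies wholly above B at each called region, while T and B overlap at the Cd2 end and at the Cd3d region 0.052 kb outside the gene.

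Cd2 had the most regions, 8, of which 7 were tested and 0 called, with log2 fold changes from −0.76 to 1.07. The region over its higher-coordinate end (chromosome 3, 101287916 to 101288108) had 27.7, 45.0, 17.0, 37.8 and 14.0 normalized CPM in T patches, against 23.4, 42.2, 7.74, 44.9 and 33.0 in B patches. The groups overlapped, with a log2 fold change of −0.10 ± 0.53 (edgeR adjusted p = 0.985) whose sign changed with the scaling, to 0.09 with library size alone. The region 0.718 kb beyond the other end (101274789 to 101275190) had 91.9 ± 35.9 in T patches and 69.5 ± 14.4 in B patches (SD, n = 5 each), a log2 fold change of 0.40 ± 0.30 (edgeR adjusted p = 0.711). At 1.32 kb inside the gene every T library lay above every B library, at 25.4 ± 5.67 against 12.1 ± 5.93 (SD, n = 5 each), but the value of 1.07 ± 0.63 did not pass (edgeR adjusted p = 0.555). The missed threshold does not show that T and B cells were alike at Cd2.

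**Figure D3:**
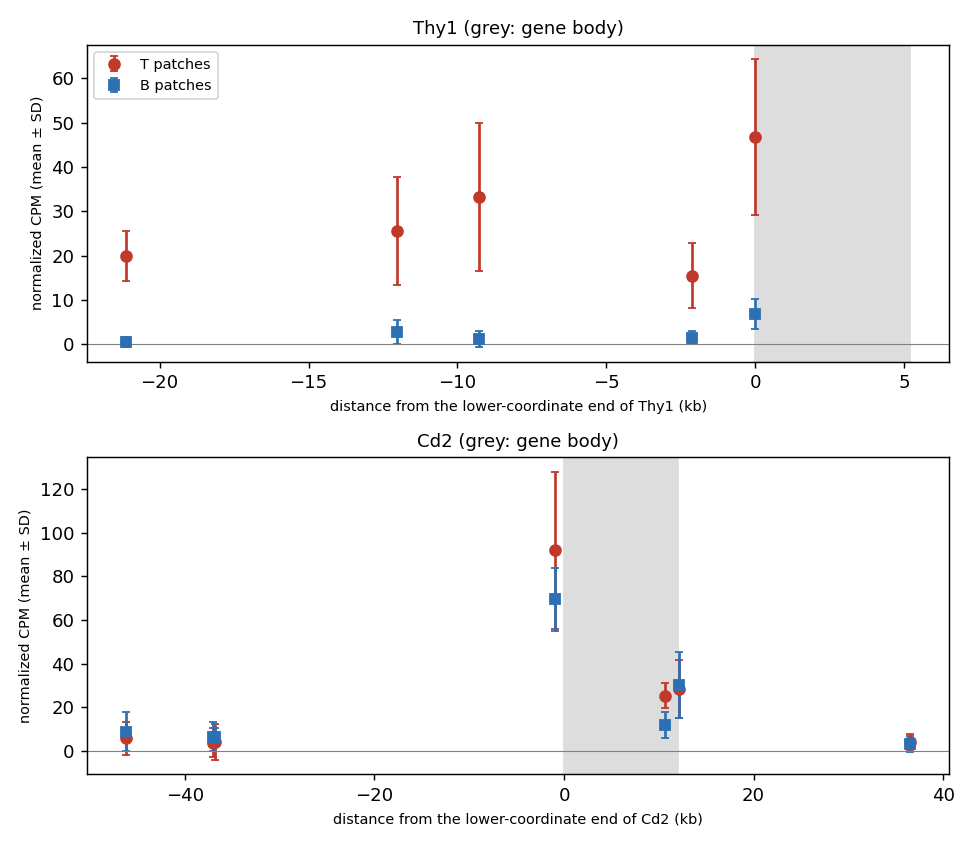
Normalized CPM (mean ± SD, n = 5 each) in T patches (circles) and B patches (squares) at the tested regions of Thy1 and Cd2, by distance in kb of the region's centre from the lower-coordinate end of each gene (grey, gene body). T lies above B at the 5 Thy1 regions, and T and B overlap at the Cd2 end.

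By position, 8 of the 31 regions lay over an end of their gene and 4 of these were called; 8 lay inside and 0 were called; 15 lay outside, of which 13 were tested and 3 called. The regions were short, with a median of 145 bases against 200 for all regions, and the 29 tested lay at a median abundance percentile of 43.5 among all tested regions. The share called among all regions was not counted by position, so the counts above are no result about position. Whether the position or the abundance bears on the calls was not tested. Summed per gene, Cd2 took 221 ± 67.3 CPM of nuclear counts in T patches and 182 ± 25.7 in B patches, and Thy1 187 ± 60.1 and 16.8 ± 6.29 (SD, n = 5 each). For Cd5 these values were 175 ± 74.9 in T patches and 49.5 ± 8.06 in B patches, and for Cd3e 35.1 ± 21.2 and 4.38 ± 6.71 (SD, n = 5 each). The sums are over regions of different number and length and are not levels to compare between genes.

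Other genes of the T cell receptor pathway were also measured. The list, chosen with earlier results of these data known, named 31 genes, of which 29 had 130 regions; Cd4 and Trat1 had none. Of 126 regions tested 9 were called higher in T, against 1.05% of all regions, and 2 lower, a share near the 1.22% of all regions. The median log2 fold change was 0.68, against 0.03 over all regions. Among those higher were regions at Cd28, a costimulatory receptor, Themis, needed in T cell development, Txk, a kinase of the Tec family, Skap1, an adaptor, Cd96 and Cd226, receptors of T and NK cells, and Cd27, a costimulatory receptor of the TNF receptor family. At an end of Themis the log2 fold change was 3.14 ± 0.47 (edgeR adjusted p = 0.00241). Inside Cd28 it was 4.25 ± 1.002, inside Skap1 4.30 ± 1.02, and at 2 regions inside Cd226 3.81 ± 0.78 and 4.27 ± 1.11 (edgeR adjusted p = 0.028, 0.0283, 0.0131 and 0.0451). At an end of Cd96 normalized CPM were 27.7 ± 13.3 in T patches and 1.22 ± 2.03 in B patches (SD, n = 5 each), with a log2 fold change of 4.41 ± 1.08 (edgeR adjusted p = 0.0351). At an end of Txk the log2 fold change was 1.90 ± 0.47 (edgeR adjusted p = 0.0362), and inside Cd27 it was 2.80 ± 0.73 (edgeR adjusted p = 0.0459). Lower in T were a region 11.4 kb inside Csk, the kinase that restrains Lck, at −1.83 ± 0.41 (edgeR adjusted p = 0.0216), and one 15.4 kb from Alcam, which encodes a ligand of CD6, at −2.23 ± 0.57 (edgeR adjusted p = 0.0421).

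The 5 regions whose profile over the 10 patch libraries was most like the mean profile of the 13 member regions of at least median abundance were picked from 12839 others. The measure was the root mean square difference of log2(normalized CPM + 1), each profile centred on its own mean. They lay 21.9 kb from B4galt1 (0.238), 0.202 kb from Ccnd2 (0.309), 39.7 kb from Fam102a (0.334), 11.3 kb from Socs1 (0.339) and 35.7 kb inside Abtb2 (0.355), and the median over all candidates was 1.24. Their log2 fold changes of T over B ran from 1.55 to 2.46, which the choice by profile fixes in direction.

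At 100 nuclei the surface genes took a larger share of nuclear counts in each T library than in each B library. The share was 0.111, 0.0916, 0.112 and 0.177% in T libraries 1 to 4, against 0.0629, 0.00675, 0.0186 and 0.0507% in B libraries 1 to 4. The means were 0.123% ± 0.0375 in T and 0.0347% ± 0.0264 in B (SD, n = 4 each), a ratio of 3.54. Regions at the other T cell markers took 0.137 to 0.192% in T libraries and 0.019 to 0.0433% in B libraries, and regions at the B cell markers 0.0108 to 0.065% in T libraries and 0.119 to 0.366% in B libraries. The part of these in the result was not tested. T libraries held 2312 counts at the 31 regions, among 2061178 nuclear ones, and B libraries 510 among 1511385.

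**Figure D4:**
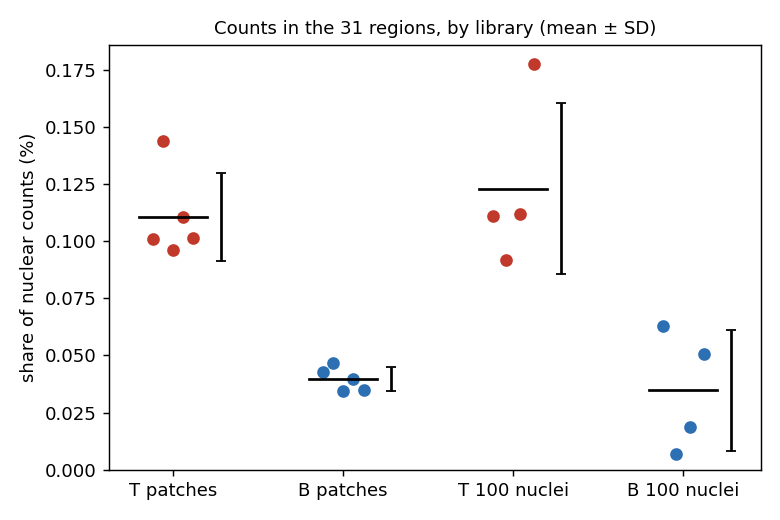
Share of nuclear counts (%, y axis) in the 31 regions for each library of the 4 groups, with mean ± SD (n = 5 in patches, n = 4 at 100 nuclei). T libraries lie between 0.0916 and 0.177% over both sizes of capture, and B libraries between 0.00675 and 0.0629%.

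The counts behind these shares sat in few regions and in large numbers. Of the 124 pairs of a region and a library, 35 had reads in T, with a median of 58 counts where there were any, and 19 in B, with a median of 20. In patches the pairs with reads were 140 of 155 in T and 126 of 155 in B. T library 3 had reads in 4 of the 31 regions and T library 4 in 6, and these libraries had reads in 14.4 and 12.1% of all regions, against 27.8 to 40.0% in the B libraries of 100 nuclei. Of T library 4's 429 counts, 144 were at the upstream Cd5 region and 96 at a Cd247 region that did not pass the filter. Whether duplicate reads were removed was not stated, so counts of a region in a library cannot be taken as independent molecules.

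The genes with reads in T libraries and none in the B libraries of 100 nuclei were Cd3g, Cd8a, Cd8b1, Cd6 and Thy1, 5 of the 10. The share of all genes with such counts was not counted, so the 5 are a description and no result about these genes. At the Cd3g start T library 1 had 108 counts and the other 3 T libraries had 0. Cd8b1 had 58 and 90 counts, and Cd8a 37 and 16, in T libraries 1 and 2. Cd6 had 5 and 139 in T libraries 2 and 3. Thy1 at 21.1 kb had 34 and 191 in T libraries 1 and 3, and the Thy1 regions at 12 and 9.21 kb had 76 and 25 in T library 2. A count of 0 over the 4 B libraries allows up to 1.98 CPM of nuclear counts, as counting error only and if each count is a separate molecule. Where B libraries had reads the median was 20 counts, so the real limit is likely higher. A count of 0 does not show that a region was closed in B cells. The Thy1 end, the most stable call in patches, had 0 counts in all 8 libraries of 100 nuclei, so no difference was detectable there at this depth.

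The other genes had reads in both cell types. The Cd2 end had 186, 160, 0 and 0 counts in T libraries and 44, 5, 0 and 14 in B libraries, and the Cd5 start 70, 0, 0 and 65 in T and 10, 0, 59 and 0 in B. The Cd3d region 0.106 kb inside the end had 91, 58, 0 and 0 in T and 33, 2, 0 and 25 in B. Over the 31 regions, 12 (38.7%) had reads in T libraries only, 2 (6.45%) in B libraries only, 10 in both and 7 in neither. Among the 25712 tested regions of the table these shares were 14.3% T only, 21.4% B only, 49.0% both and 15.3% neither. Unlike the 25712, the 31 include 2 regions that did not pass the filter. These were a Cd247 region with reads in T only and a Cd2 region with reads in neither.

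**Figure D5:**
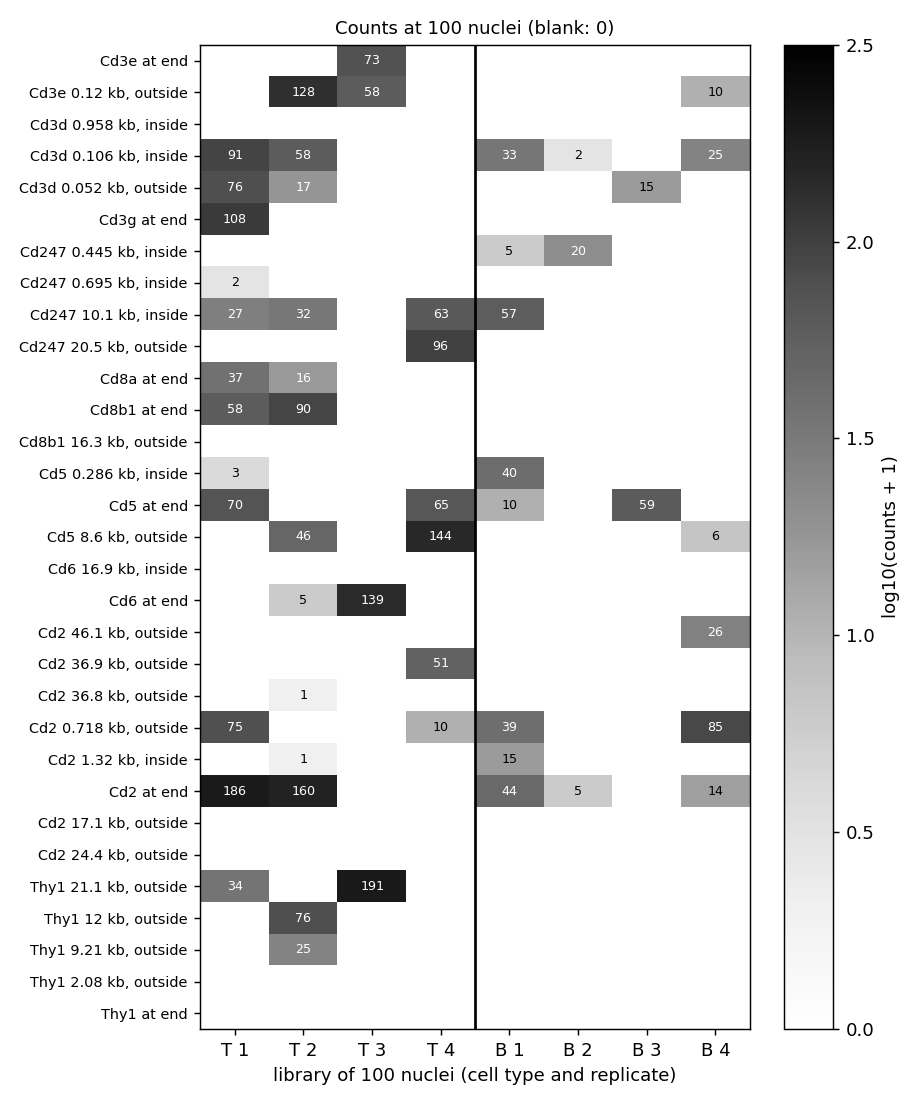
Deposited counts at the 31 regions (rows) in the 8 libraries of 100 nuclei (columns, T left and B right; blank cells are 0, shading is log10(counts + 1)). Cd3g, Cd8a, Cd8b1, Cd6 and Thy1 have counts in T columns and none in B columns, and the share of all genes with such counts was not counted.

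With the T and B libraries of 100 nuclei fitted on their own, no single region at these genes passed. The edgeR test called 0 of the 29 (background 0.0156%, the 4 mitochondrial regions, which were lower in T). At an unadjusted p under 0.05 were 2 of the 29, Cd8b1 at its end and Thy1 at 21.1 kb (edgeR adjusted p = 0.356 for both), against 5.50% of all regions. DESeq2 also called 0 of the 29, with 2 under 0.05. The joint fit of all 18 libraries called 10 of the 29, 8 higher and 2 lower in T. Of all 25712 regions it called 6955, 2330 higher and 4625 lower in T. The members' share of calls, higher and lower added, is not far above that of all regions. The directions differed: 8 of the members' 10 calls were higher in T, against 2330 of the 6955 calls among all regions. At each of the 10, all T or all B libraries of 100 nuclei were at 0, so the fitted sizes have no meaning. The edgeR test of whether the T over B difference itself differed between patches and 100 nuclei called 0 of the 29 and 0 of all regions (background 0%), with 5 of the 29 under an unadjusted 0.05 and 27.1% of all regions. DESeq2 called 3 of the 29 in that test and 3208 of all 25712 regions, so the members' share is near that of all regions. The 3 were Thy1 at 12 kb and the starts of Cd3g and Cd3e, where the B libraries of 100 nuclei were all at 0 and the fitted sizes have no meaning. Neither test shows that T and B differed alike in both sizes of capture.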

How the data were processed

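Counts of ATAC-seq reads per region in 18 libraries were used as the authors deposited them, in 1 table of 27396 regions. Per the submitters' processing notes, the build was mm10 and the tools were Bowtie2 2.4.5, MACS2 2.2.7.1, SAMtools 1.14, Picard, Trimmomatic 0.36, bcl2fastq 2.20, R 4.1.0 and deepTools 3.5.2. What each did, how regions were called, whether duplicate reads were removed or ends shifted for the transposase, and whether starts count from 0 or 1 was not stated in the labels or header.

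Each region was given the protein-coding gene of a GRCm38.p6 table (RefSeq) whose end lay nearest, up to 50 kb away; 86.7% of the regions had one. That table has no strand, and start sites and promoters came from a RefSeq promoter table for 6 of the 10 genes. Regions were tested with edgeR 4.0.16 under R 4.3.3 (quasi-likelihood F-test, TMM scaling, Benjamini-Hochberg adjustment over all 25712 regions that filterByExpr kept at a minimum count of 10, with all 4 groups as its design). T over B was fitted separately for patches and for 100 nuclei, and the difference of the capture sizes over the 18 libraries together. An SE is the size of the log2 fold change over the root of its F statistic. Normalized CPM use the factors of the comparison. Named regions were those called in patches and, per gene, the one nearest an end and the one with the smallest p. Members, lists and tests were chosen with earlier results of these data known. Alternatives were DESeq2 1.42.0, other scalings, filters and assignments, a joint fit, a replicate block and each library left out. An SE reflects spread among libraries, as the p-values do. Floors (3 counts) cover counting error only and take each count as a separate molecule.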

Additional observations from a re-analysis of the deposited data

Results flagged for a closer look

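In groups of 4 or 5 libraries, a single library stood apart from the rest of its group in 4 of 36 groups examined. Chance would give about 1 in 20 for independent groups of normally distributed values. Some values here were at or near 0 and the regions share libraries, so the 4 cannot be held against that rate. T patch library 2 had 92.0 normalized CPM at the end of Cd8b1, above the other T patches at 41.1 to 49.6. T patch library 4 had 35.1 at the Cd2 region 1.32 kb inside the gene, above 20.1 to 24.2 in the others. T patch library 3 had 9.80 at the Cd247 region 0.445 kb inside the gene, where 2 other T patches were at 0. B patch library 2 had 2.57 at the Thy1 region 21.1 kb out, where 3 other B patches were at 0. The cause was not tested in any of the 4.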

How the results depend on the processing

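The 7 calls in patches were 13 with DESeq2, 0 in the joint fit of all 4 groups and 3 with the replicate block, and the calls among all regions, 583, were 1695, 0 and 215. Leaving out 1 patch library gave 3 to 9 calls among the 29 regions and 259 to 673 among all. Without both libraries numbered 2, chosen after seeing the data, all regions gave 1156. At 100 nuclei the 4 calls among all regions were 0 with DESeq2 (2202 at an unadjusted p under 0.05). They were 0 without mitochondrial regions, 0 with the replicate block and 2 to 4 with a library left out. The joint fit called 6955 of all regions, 2330 higher and 4625 lower in T, and 10 of the 29, 8 higher and 2 lower. For the difference between capture sizes, DESeq2 called 3208 regions and 3 of the 29, a minimum count of 30 gave 5 of all regions, and leaving out a library gave 0 to 419, the highest without T 100 library 1, with 0 of the 29 in each. The log2 fold change turned to 0.085 at the Cd2 end with library size alone. At the Cd3d region 0.052 kb out it was −0.044 with DESeq2 size factors, −0.047 with DESeq2, −0.035 with a minimum count of 30 and −0.039 without mitochondrial regions. At Cd247, 0.445 kb inside, it was −0.49 with the replicate block. With a library left out these ran from −0.34 to 0.089, −0.41 to 0.68 and −1.20 to 0.84. Mean shares were 0.0889% in T patches and 0.0287% in B patches of all counts, and within 10 kb 0.0334% in B patches and 0.0836% in T 100 nuclei. The cause of these changes was not tested.

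Same-numbered T and B libraries deviated from their group means, across regions, with Pearson's r of −0.0072 to 0.0332 in patches. At 100 nuclei r was −0.0138 to 0.0186. Such values give no sign that the numbers pair libraries. They cannot show that same-numbered libraries share no mouse or section, since sharing need not leave a correlation across regions. Whether the numbers pair libraries is therefore unknown. Under the block the calls at the Cd5 upstream region, Cd8b1 and the Thy1 end held. Folds of single regions at 100 nuclei were not recomputed, as none is reported.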
